A study of Mus musculus with 66 samples.

Results

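Gene expression in blood mononuclear cells was compared between normoxia mice on postnatal day 28 (P28) and normoxia mice on postnatal day 12 (P12), the last and the first of the 3 ages sampled. Every sample whose title gave normoxia with either age entered the comparison, which took in 11 mice at P12 and 11 mice at P28, or 22 of the 66 samples in all. The study followed oxygen-induced retinopathy in C57BL/6 mice: litters were placed with their nursing dam in hyperoxia (75% oxygen) or in normoxia (21% oxygen) on postnatal day 7, stayed there until P12, and lived in room air from then on. The normoxia mice were controls of 1 inbred strain with no allele or agent added. They too were kept in a chamber until P12, so that P12 mice were sampled as the stay ended and P28 mice after a time in room air, and age and time since the chamber cannot be told apart. Blood was drawn from the heart, mononuclear cells were separated over Ficoll, and the RNA of 1 mouse was hybridized to each array together with a universal mouse reference RNA. Dams stayed with their litters to the end, so the age at which the P28 mice stopped suckling is not given in the sources used here. The labels do not tie mice to litters, and mice of 1 litter may be among the 11 of a group, so the p-values below measure the spread between mice.

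In the weeks after birth a mouse goes over from milk to solid food, its gut is colonized by microbes, and its blood and lymphoid organs fill with mature lymphocytes while the making of red cells and granulocytes settles in the marrow. ATF4 is a transcription factor that is translated when amino acids are short or other stresses slow the ribosome, and it switches on genes of amino acid synthesis, amino acid transport and tRNA charging. Interferons switch on another set of genes through transcription factors of their receptors' signalling pathway, among them antiviral proteins and parts of the machinery that presents antigen.

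Each value below is a log2 ratio of the Cy3 over the Cy5 signal of a probe, and each change is the mean log2 ratio at P28 minus that at P12, with its standard error (SE). The labels name Cy5 as the dye of the blood RNA, but the intensities went against them. Hba-a1, alpha globin of red cells, had a normalized log2 intensity of 17.76 to 18.14 in Cy3 and of 10.31 to 11.95 in Cy5 on the 22 arrays, and pairs of arrays correlated with a median r of 0.966 in Cy3 and 0.993 in Cy5. Cy3 was therefore read as the blood channel, which is opposite to the direction the labels would give, and every direction below turns if the labels are right. Both groups had 10 arrays scanned on 1 day and 1 array on another, and the arrays of both groups lay on the same 8 slides. The share of probes well above background was 44.0% ± 4.88 (SD, n = 11) at P12 and 44.3% ± 4.20 (SD, n = 11) at P28, a difference of 0.382 percentage points (two-sided permutation test, p = 0.848). The preparations held erythroid RNA beside that of mononuclear cells: the mean log2 ratio over the erythroid markers was 3.92 ± 0.63 (SD, n = 11) at P12 and 3.92 ± 0.59 (SD, n = 11) at P28. P12 replicates 1 and 2 (2.77 and 2.76) and P28 replicate 9 (2.34) were lower in it than the other arrays. The Y-linked gene Eif2s3y was well above background on 6 of the 11 P12 arrays and 5 of the 11 P28 arrays.

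Blood of P28 mice differed from that of P12 mice in 2275 of 25599 probes tested (8.89%; limma, Benjamini-Hochberg adjusted p under 0.05), of which 1323 (5.17%) were higher and 952 (3.72%) lower at P28. Counted by gene, with each gene taken at its brightest probe, 1324 of 13028 genes (10.2%) passed the test, 851 higher (6.53%) and 473 lower (3.63%). Most changes were small. The median size of the log2 change among the called genes was 0.48, and 99 genes rose and 42 fell by more than 2-fold. In 51 genes (0.391%) the 11 P28 values lay entirely above or entirely below the 11 P12 values. Centring each array on its median in place of loess normalization called 958 probes, 889 higher and 69 lower, of which 652 were among the 2275. Array weights, the erythroid level as a covariate and the detection share as a covariate gave 4479, 4493 and 3813 probes. With the signals of the scanner software, which have no offset added, 35 of the 89 named genes called changed by more than 1.5 times the value printed below. In 7 the change was under the printed value divided by 1.5, and 70 of the 89 passed the test. The lists with the most risers were those of interferon response (18 of 27), cytotoxic lymphocytes (8 of 17) and MHC class I presentation (7 of 18), and those with the most falls were the ATF4 response (11 of 26), neutrophils (7 of 22, of which 6 stefins) and basophils, mast cells and eosinophils (6 of 11). In a bulk sample of this kind, fewer cells of a type and less RNA per cell cannot be told apart. The samples were mononuclear cells, and how far granulocytes carried over in the separation contribute to the neutrophil and eosinophil values was not tested.

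**Figure D1:**
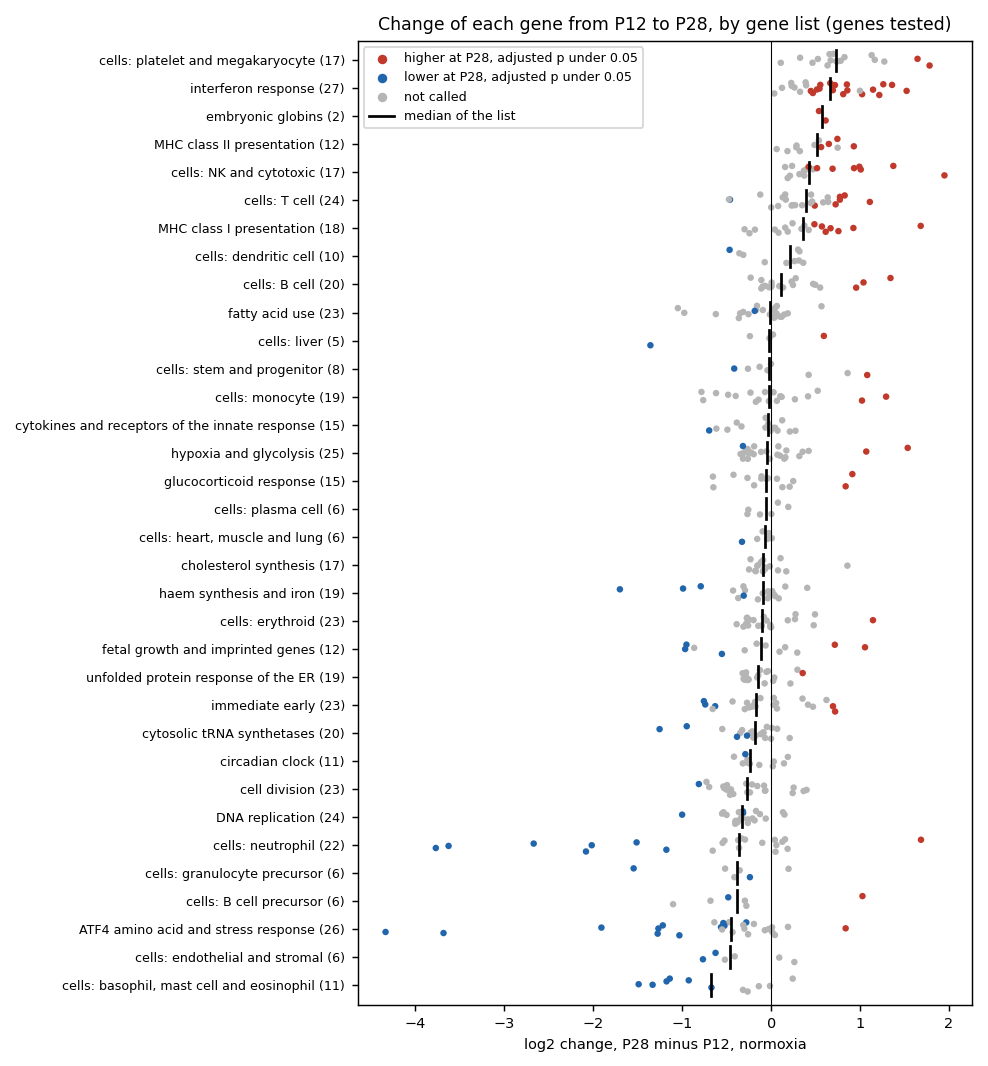
Log2 change from P12 to P28 in normoxia (x axis) of the tested genes of each list (y axis, number of genes in parentheses), 1 point per gene, red or blue where higher or lower past the adjusted threshold and grey otherwise, with a bar at the median of each list. All 27 interferon response genes lay above 0 with 18 past the threshold, while 11 of the 26 ATF4 response genes and 6 of the 11 basophil, mast cell and eosinophil genes were past it below 0.

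Of the named genes the largest fall with age was that of Atf5, and other ATF4 targets fell with it. Atf5, a stress-induced transcription factor related to ATF4, ranged from -1.36 to 3.27 at P12 with a median of 1.07, and from -3.92 to -2.41 at P28 with a median of -2.98. The 11 P28 mice were all below the 11 P12 mice, and the fall of 4.33 on the log2 scale (SE 0.48, adjusted p = 1.66e-05, limma) was 20.2-fold. Asns, which encodes asparagine synthetase, ranged from -2.18 to 2.42 (median 0.21) at P12 and from -5.01 to -2.71 (median -3.40) at P28. It fell by 3.68 (SE 0.43, adjusted p = 2.72e-05), or 12.8-fold, again without overlap. A further probe for Asns was also called lower, with a smaller change of -1.37. Trib3, a pseudokinase that feeds back on ATF4, ranged from -2.76 to 1.98 (median -1.01) at P12 and from -3.35 to -2.71 (median -2.98) at P28. Its groups just overlapped, and its fall of 1.91 (SE 0.42, adjusted p = 0.00662) was 1.60 without P12 replicate 3. The spread between mice also narrowed: the SD of Atf5 was 1.61 at P12 and 0.49 at P28, that of Asns 1.38 and 0.62, and that of Trib3 1.46 and 0.20, differences that were not tested. For Trib3 the P12 SD includes replicate 3, the highest value. At P28 the Cy3 log2 intensity of Trib3 ran from 5.99 to 7.17, low values to which an offset of 50 was added. With the signals of the scanner software the change of Trib3 was -3.42, and a part of the offset in its narrow P28 spread was not tested.

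The promoters of Asns and Trib3, which both hold a C/EBP-ATF element, are shown because they are the lower members of the list in which that motif was found. Sequences are those of RefSeq (GRCm38.p6), 5′ to 3′ on the strand of the gene, from 250 bases before to 50 bases after the gene start, and the capitals mark the match to TGATGNAA on either strand. Asns lies at chr6:7693160-7693459 on the minus strand, and Trib3 at chr2:152344011-152344310 on the minus strand, with the match on the strand opposite to the gene.
Asns: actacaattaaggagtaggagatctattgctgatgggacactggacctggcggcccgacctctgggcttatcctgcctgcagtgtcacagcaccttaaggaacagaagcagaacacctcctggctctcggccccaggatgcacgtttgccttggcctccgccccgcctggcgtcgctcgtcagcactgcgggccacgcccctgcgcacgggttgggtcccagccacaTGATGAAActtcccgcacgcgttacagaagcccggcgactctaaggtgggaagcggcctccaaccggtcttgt
Trib3: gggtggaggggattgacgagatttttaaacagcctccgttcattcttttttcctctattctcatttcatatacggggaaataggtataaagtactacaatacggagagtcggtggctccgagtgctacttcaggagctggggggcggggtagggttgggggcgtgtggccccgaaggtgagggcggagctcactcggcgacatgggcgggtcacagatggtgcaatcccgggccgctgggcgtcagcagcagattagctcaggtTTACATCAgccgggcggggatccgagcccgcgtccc
In Asns the match lay 23 bases before the gene start, and in Trib3 14 bases after it. The motif was present in 5 of the 24 ATF4 list genes with a promoter in the table (20.8%), in 2 of the 11 lower ones and in 3 of the 12 that were not called, against 323 of 10380 genes tested (3.11%) and 1304 of all 32851 promoters (3.97%). The letters were thus more frequent among list genes than among all genes, and no more frequent among those that fell than among those not called.

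Of the 35 genes listed for the ATF4 response to amino acid shortage and stress, 26 were tested, 11 fell and 1 rose, and the median log2 change was -0.45, beside -0.0029 for all genes tested. Atf4 itself fell by 1.22 (adjusted p = 0.00134), its values ranging from 0.27 to 2.90 (median 1.03) at P12 and from -0.30 to 0.56 (median 0.03) at P28. Shmt2, the mitochondrial serine hydroxymethyltransferase, fell by 1.03 (SE 0.18, adjusted p = 0.000861) from a median of -1.38 to one of -2.38. Slc3a2, the heavy chain of several amino acid transporters, fell by 1.27 (adjusted p = 0.0024) at 1 of its 2 probes, with -0.27 and no call at the other. Mthfd2, of mitochondrial folate metabolism, fell by 1.28 (adjusted p = 0.0248), and Sesn2, Ddit3, Ppp1r15a and Cebpg fell by 0.54, 0.53, 0.56 and 0.28. Several enzymes of serine and amino acid synthesis did not pass the test, with log2 changes of -0.31 for Psat1, -0.26 for Phgdh and 0.01 for Psph. The single riser was Ddit4, an inhibitor of mTORC1 that glucocorticoids and low oxygen also induce, with 0.84 (SE 0.18, adjusted p = 0.006). With median centring 5 of the list's genes were lower.

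**Figure D2:**
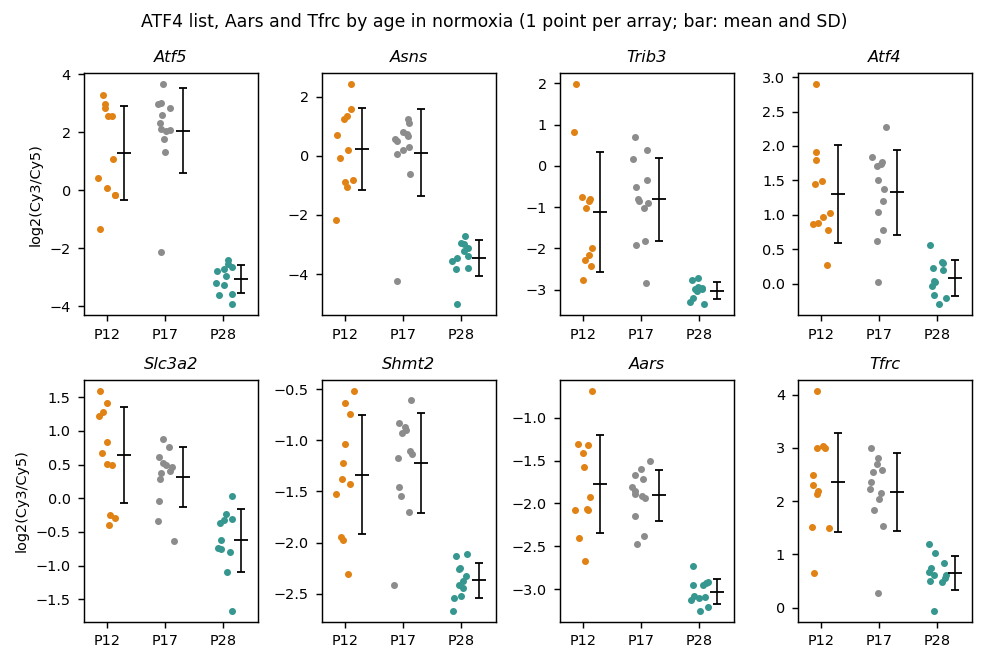
Log2 ratio of Cy3 over Cy5 (y axis) of 6 ATF4 list genes, Aars and Tfrc in normoxia mice at P12, P17 and P28 (x axis), 1 point per mouse, with the mean and SD of each group beside them. P28 values of Atf5 and Asns lie below every P12 value, and P17 means (2.04 and 0.11) lie with P12.

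Genes that charge tRNAs moved the same way in part. Of 20 cytosolic tRNA synthetases tested, 4 fell and none rose, with a median log2 change of -0.19. Aars, the alanyl-tRNA synthetase, ranged from -2.67 to -0.69 (median -1.92) at P12 and from -3.25 to -2.73 (median -3.07) at P28, so that the groups did not overlap, and it fell by 1.25 (SE 0.17, adjusted p = 0.000112). Sars, Hars and Mars1, which charge serine, histidine and methionine, fell by 0.95, 0.38 and 0.27. With median centring 1 of the 20 remained lower. The unfolded protein response of the endoplasmic reticulum, which shares the eIF2 branch with ATF4, had 19 genes tested, none lower and Sec61b higher by 0.35 (adjusted p = 0.0233), with a median of -0.15. Sec61b lost the call with median centring, Cy3 alone and slide as a block (limma, adjusted p = 0.226, 0.362 and 0.0541).

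Transcripts of 4 genes of haem synthesis and iron handling fell. Tfrc, the transferrin receptor by which erythroid precursors and dividing cells take up iron, ranged from 0.66 to 4.07 (median 2.30) at P12 and from -0.06 to 1.20 (median 0.62) at P28, a fall of 1.70 (SE 0.28, adjusted p = 0.000713). In all, 19 genes of this list were tested, none rose, and the median was -0.09. The count of 4 was 1 with median centring and 2 with slide as a block. Cpox and Alad, enzymes of haem synthesis, fell by 0.99 and 0.79, and the iron exporter Slc40a1 fell by 0.31. In the erythroid list, of 23 genes tested, Xpo7 rose by 1.14 (adjusted p = 0.0216) at 1 of its 2 probes, with -0.15 at the other, none fell, and the median was -0.11. Hba-a1 had a change of -0.25 (adjusted p = 0.77) and Alas2, the first enzyme of haem synthesis in red cells, one of -0.31 (adjusted p = 0.667). The embryonic globins Hbb-y and Hbb-bh1, normally silenced before birth, were higher at P28. Hbb-bh1 ranged from 0.01 to 0.47 (median 0.17) at P12 and from 0.18 to 1.15 (median 0.73) at P28, a rise of 0.54 (SE 0.09, adjusted p = 0.000466), and Hbb-y rose by 0.61 (SE 0.12, adjusted p = 0.00268). The rises were 2.14 and 1.21 with the signals of the scanner software. Both stand beside the far more abundant adult beta globins, to which their probes may cross-hybridize.

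The stefin A genes fell together. Stefins are small inhibitors of cysteine cathepsins, and this rodent family is transcribed in neutrophils and their precursors. Stfa1 ranged from 2.42 to 6.40 (median 3.77) at P12 and from 0.21 to 1.85 (median 0.33) at P28. It fell by 3.63 (SE 0.38, adjusted p = 7.62e-06), or 12.4-fold, with no P28 mouse as high as the lowest P12 mouse. Cstdc5 ranged from 2.77 to 6.64 (median 3.92) at P12 and from 0.21 to 2.26 (median 0.47) at P28, a fall of 3.77 (SE 0.39, adjusted p = 7.62e-06), or 13.6-fold, and Stfa2 fell by 2.67 (SE 0.38, adjusted p = 0.000188), both without overlap. By the gene order of RefSeq, 12 protein-coding members lie side by side on chromosome 16. Probes for 8 of them were tested, and all 8 were lower. In 7 the fall was between 1.51 and 3.77, and the eighth, Csta3, was well above background on 10 of the 11 P12 arrays and on 0 of the 11 P28 arrays, so that its P28 level has only an upper bound. Among the 7, Csta2 was well above background on 1 of the 11 P28 arrays, so that its fall of 1.91 rests on a P28 level near background, and it was 6.06 with the signals of the scanner software. Of the 5 genes on either side of the cluster, 7 of 10 were tested, 1 was called (Parp9, 0.31 higher, adjusted p = 0.037), and their changes ran from -0.10 to 0.31. The stefin B gene Cstb, which lies elsewhere in the genome, had a change of -0.18 (adjusted p = 0.326). The flanking genes, Csta3 and Cstb were chosen after their values were seen. Members of the cluster are near-identical in sequence, probes may share signal, and the 8 falls are not independent of each other. P12 replicates 1 and 2, the mice low in erythroid RNA, were among the highest in Stfa1, and without them and P28 replicate 9 the list still had 7 lower neutrophil genes.

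**Figure D3:**
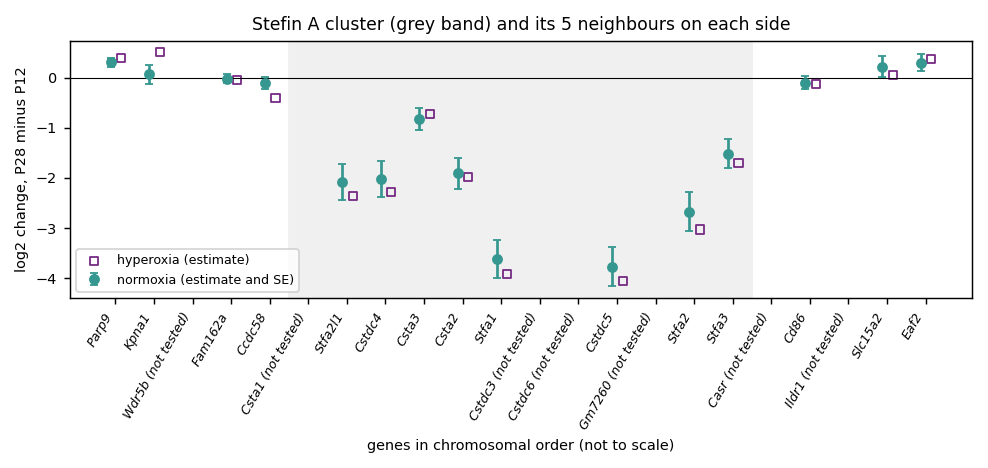
Log2 change from P12 to P28 (y axis) of the stefin A genes (grey band) and their neighbours in the order of RefSeq on chromosome 16 (x axis, not to scale), circles for normoxia with SE and squares for hyperoxia. In normoxia the 8 tested stefins lie between -3.77 and -0.82, of which Csta3 (-0.82) was well above background on 0 of the 11 P28 arrays, and the 7 tested flanking genes between -0.10 and 0.31.

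Of 22 neutrophil genes tested, 15 had negative changes with a median of -0.37, and 7 fell, 6 of them stefins and the seventh Retnlg, a resistin-like protein of neutrophils, by 1.18 (adjusted p = 0.0161). The 14 that did not pass the test included granule genes with negative changes, such as Camp (-0.66), Mmp9 (-0.55), Ngp (-0.52) and Ltf (-0.36), and genes near 0, such as S100a8 (0.06), S100a9 (0.16) and Cxcr2 (0.05). Chil3, a chitinase-like protein of monocytes and neutrophils, rose by 1.68 (SE 0.40, adjusted p = 0.0109). Of 6 granulocyte precursor genes tested, 2 fell. Cebpe, the factor that drives late granulocyte maturation, ranged from 1.53 to 3.52 (median 2.23) at P12 and from 0.50 to 1.76 (median 0.95) at P28, a fall of 1.55 (SE 0.23, adjusted p = 0.000236), and the protease gene Prtn3 fell by 0.24 (adjusted p = 0.0343). 

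Genes of eosinophils, basophils and mast cells were lower at P28, 6 of 11 with none higher and a median of -0.67. Siglecf, a lectin of eosinophils, ranged from 1.02 to 2.66 (median 1.68) at P12 and from 0.25 to 0.97 (median 0.51) at P28, a fall of 1.18 (SE 0.17, adjusted p = 0.00025) without overlap. Prg2, the eosinophil major basic protein, ranged from 0.57 to 2.81 (median 1.79) at P12 and from -0.08 to 0.22 (median 0.04) at P28, where 2 of 11 arrays measured it above background, and it fell by 1.49 (SE 0.23, adjusted p = 0.000417). The eotaxin receptor gene Ccr3 fell by 1.33 (adjusted p = 0.00164), Cpa3, a protease of mast cells and basophils, by 1.14 (adjusted p = 0.00906), Mcpt8, a basophil protease, by 0.93 (adjusted p = 0.00132), and the cytokine gene Il4 by 0.67 (adjusted p = 0.00971). Mcpt8 was well above background on 10 of 11 P12 arrays and 5 of 11 P28 arrays. Prg2 and Mcpt8 thus entered the test through P12 alone, the group in which they were higher. The falls of Siglecf, Prg2 and Mcpt8 were 2.43, 3.12 and 3.05 with the signals of the scanner software. With median centring 5 of the 11 were lower.

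Interferon response genes were higher at P28. Of 27 tested, 18 rose and none fell, all 27 changes were positive, and their median was 0.66. Rtp4, which has the smallest adjusted p of the list, ranged from -0.29 to 0.23 (median -0.03) at P12 and from 0.99 to 2.18 (median 1.56) at P28. Every P28 mouse was above every P12 mouse, and the rise was 1.52 (SE 0.13, adjusted p = 7.57e-07), or 2.87-fold. Xaf1, a pro-apoptotic interferon target, ranged from -0.33 to 0.63 (median 0.31) at P12 and from 1.02 to 1.77 (median 1.46) at P28, a rise of 1.14 (SE 0.11, adjusted p = 1.85e-06), also without overlap. Ifih1, the RNA sensor MDA5, ranged from 0.20 to 0.63 (median 0.31) at P12 and from 0.63 to 1.07 (median 0.88) at P28, and rose by 0.51 (SE 0.07, adjusted p = 5.05e-05). Among genes chosen after their values were seen, the oligoadenylate synthetase gene Oas1a rose by 1.36 and Ifit3, which binds viral RNA caps together with other Ifit proteins, by 0.55, both without overlap. Irf9, a transducer of the response, rose by 0.45 (adjusted p = 0.0087), while Stat2 and Isg15 had changes of 0.12 and 0.32 that did not pass the test. With median centring 17 were higher and with the signals of the scanner software 16, where the change of Ifih1 was 1.11 and that of Xaf1 1.60. A further probe for Xaf1 had a change of 0.15.

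Promoters of Ifih1, Oas1a and Ifit3 are shown because all 3 genes rose and hold the core of the interferon-stimulated response element, GAAA followed after any 2 bases by another GAAA, which the capitals mark on either strand. They lie at chr2:62646206-62646505 (minus strand), chr5:120907476-120907775 (minus strand) and chr19:34583279-34583578 (plus strand), and are taken from RefSeq as above.
Ifih1: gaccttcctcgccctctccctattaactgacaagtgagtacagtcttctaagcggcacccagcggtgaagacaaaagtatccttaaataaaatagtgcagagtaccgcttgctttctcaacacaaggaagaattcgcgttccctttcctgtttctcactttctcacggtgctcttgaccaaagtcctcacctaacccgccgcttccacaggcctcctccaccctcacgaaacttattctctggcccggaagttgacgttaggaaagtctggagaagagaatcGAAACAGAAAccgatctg
Oas1a: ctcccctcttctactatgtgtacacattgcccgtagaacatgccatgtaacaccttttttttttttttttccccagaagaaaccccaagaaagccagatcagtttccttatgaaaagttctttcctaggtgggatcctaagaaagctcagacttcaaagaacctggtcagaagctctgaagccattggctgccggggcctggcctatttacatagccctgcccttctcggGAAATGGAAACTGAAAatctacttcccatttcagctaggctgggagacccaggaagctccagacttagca
Ifit3: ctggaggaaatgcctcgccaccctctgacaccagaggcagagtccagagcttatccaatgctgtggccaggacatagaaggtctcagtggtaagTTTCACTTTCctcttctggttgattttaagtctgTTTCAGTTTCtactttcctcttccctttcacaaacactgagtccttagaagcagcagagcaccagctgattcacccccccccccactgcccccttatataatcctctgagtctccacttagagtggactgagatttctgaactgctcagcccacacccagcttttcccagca
The match lay 32 bases after the gene start in Ifih1, and the first of 2 matches lay 20 bases before it in Oas1a and 156 bases before it in Ifit3. Of 21 interferon list genes whose promoter was in the table, 13 held the motif (61.9%), against 417 of 10380 genes tested (4.02%) and 1131 of all 32851 promoters (3.44%). It was found in 6 of the 12 that rose and in 7 of the 9 that were not called, so that within the list its presence did not mark the genes that rose.

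Some genes of antigen presentation rose as well. B2m, the light chain of MHC class I molecules, ranged from -0.17 to 1.19 (median 0.65) at P12 and from 1.46 to 2.99 (median 2.47) at P28, a rise of 1.68 (SE 0.19, adjusted p = 1.81e-05), or 3.21-fold, without overlap. H2-M3, a class I molecule that presents formylated bacterial peptides, ranged from -0.85 to -0.33 (median -0.50) at P12 and from -0.21 to 0.79 (median 0.07) at P28, a rise of 0.67 (SE 0.10, adjusted p = 0.000183) without overlap. Nlrc5, the transactivator of class I genes, rose by 0.92 (SE 0.13, adjusted p = 0.000188) from a median of 0.71 to one of 1.53, and H2-K1, Tap1, Psme1 and H2-Q7 rose by 0.76, 0.57, 0.49 and 0.61 (0.17 at a further probe for Tap1). In all, 7 of 18 class I genes rose, none fell, and the median was 0.36. Of 12 class II genes 4 rose and none fell, with a median of 0.51: H2-Ob and H2-Oa, the subunits of the B cell molecule H2-O that inhibits the peptide loader H2-DM, by 0.93 and 0.65, H2-Eb2 by 0.56, and Ciita, the transactivator of class II genes, by 0.74 (0.24 at a further probe). H2-Aa (0.75, adjusted p = 0.0576) and Cd74 (0.49, adjusted p = 0.155) did not pass. With median centring 3 class I and 2 class II genes were higher. MHC genes are near-identical paralogs and their probes may share signal.

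**Figure D4:**
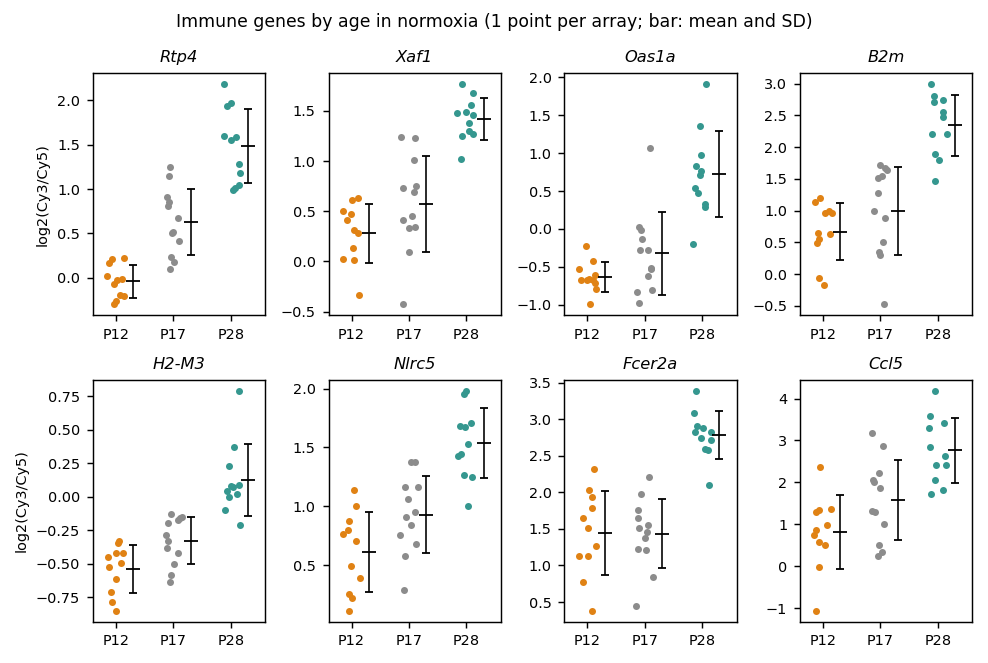
Log2 ratio of Cy3 over Cy5 (y axis) of 8 genes of interferon response, antigen presentation and lymphocytes in normoxia mice at P12, P17 and P28 (x axis), 1 point per mouse, with the mean and SD of each group beside them. For Rtp4 and B2m, every P28 mouse lies above every P12 mouse, with P17 means of 0.63 and 0.99.

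Cytotoxic lymphocyte genes were higher at P28, 8 of 17 with none lower and a median of 0.42. Ccl5, a chemokine of memory T cells and NK cells, was the largest riser of all named genes: it ranged from -1.06 to 2.37 (median 0.87) at P12 and from 1.72 to 4.18 (median 2.64) at P28, a rise of 1.95 (SE 0.34, adjusted p = 0.00102), or 3.86-fold. The groups overlapped. Gzma, the granzyme A gene, ranged from 1.58 to 4.32 (median 3.05) at P12 and from 3.14 to 5.57 (median 4.69) at P28, a rise of 1.37 (SE 0.31, adjusted p = 0.00789). Il2rb, Nkg7, Klrd1, Gzmb, Klrk1 and Prf1 rose by 1.01, 0.99, 0.93, 0.69, 0.52 and 0.42. With median centring 4 of the 17 were higher, and without the 3 arrays low in erythroid RNA 11 were.

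Among 24 T cell genes 6 rose and 1 fell, with a median of 0.40. Ccr7, the receptor by which naive T cells enter lymph nodes, ranged from 2.36 to 5.11 (median 4.02) at P12 and from 4.72 to 5.55 (median 5.04) at P28 and rose by 1.11 (SE 0.25, adjusted p = 0.00702), and had a change of 0.73 (adjusted p = 0.0617) with the signals of the scanner software, and Lef1, a transcription factor of naive T cells, rose by 0.77 (SE 0.16, adjusted p = 0.00343). Cd5, Cd6 and Cd28 rose by 0.83, 0.72 and 0.49, Cd247, the zeta chain of the T cell receptor complex, fell by 0.46 (adjusted p = 0.0252) at 1 of its 3 probes, the others reaching 0.07 and the call being lost with the software's signals (-0.26, adjusted p = 0.509), and Cd3e had a change of 0.16 (adjusted p = 0.549). With median centring 1 T cell gene was higher, and without P12 replicate 2 there were 10.

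In the B cell list 3 of 20 genes rose. Fcer2a, the low-affinity IgE receptor CD23, ranged from 0.38 to 2.31 (median 1.51) at P12 and from 2.10 to 3.39 (median 2.83) at P28, a rise of 1.34 (SE 0.19, adjusted p = 0.000183), or 2.53-fold. Cr2, the complement receptor CD21, rose by 0.96 (SE 0.15, adjusted p = 0.000504) from a median of 1.36 to one of 2.34, and Fcmr, the receptor for IgM, by 1.04 (SE 0.20, adjusted p = 0.00195). Ms4a1 and Cd79a had changes of -0.11 each (adjusted p = 0.887 and 0.712), and the median of the list was 0.11 (5 genes higher without P12 replicate 1 or 3). With the signals of the scanner software none of the 3 risers passed the test: Fcer2a had 0.77 (adjusted p = 0.132), Cr2 1.25 (adjusted p = 0.0562) and Fcmr -0.10 (adjusted p = 0.909). Of the genes of B cell precursors, Il7r, which T cells also express, rose by 1.03 (adjusted p = 0.0156), and Vpreb1, a surrogate light chain, fell by 0.48 (adjusted p = 0.0488). Il7r lost the call with the signals of the scanner software (adjusted p = 0.243), and both lost it with median centring (adjusted p = 0.0545 and 0.251).

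Of 17 platelet and megakaryocyte genes, all had positive changes with a median of 0.73, and 2 passed the test. Ppbp, the platelet basic protein, ranged from 2.29 to 7.31 (median 5.90) at P12 and from 6.02 to 8.70 (median 7.44) at P28, a rise of 1.78 (SE 0.45, adjusted p = 0.0156) that was 0.42 (adjusted p = 0.456) with the signals of the scanner software. P2ry12, the platelet ADP receptor, rose by 1.65 (SE 0.34, adjusted p = 0.00466). Pf4 had 0.82 (adjusted p = 0.219). Without P28 replicate 1 or 7, 4 of the 17 passed. Angpt1, a ligand of the endothelial receptor TIE2 that megakaryocytes also make, was outside the list and ranged from -0.34 to 1.24 (median 0.38) at P12 and from 0.52 to 2.82 (median 2.06) at P28, a rise of 1.55 (SE 0.25, adjusted p = 0.000592). Among 19 monocyte genes Ly6c2, the antigen of inflammatory monocytes, rose by 1.02 (SE 0.17, adjusted p = 0.000572) and F13a1, a coagulation factor chain of monocytes and platelets, by 1.29 (adjusted p = 0.00757, with 0.04 at a further probe), and the median was -0.03. Of 10 dendritic cell genes, Batf3 fell by 0.47 (adjusted p = 0.0204).

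Outside the lists, the strongest risers beside Ccl5 and B2m were Apol11b (1.74, adjusted p = 0.0185, but 1.15 and 0.223 with the signals of the scanner software), of the apolipoprotein L family, Lgalsl (1.64, adjusted p = 0.00625), a galectin-like gene, and Lrrn3 (1.62, adjusted p = 0.0123), a leucine-rich repeat gene of naive T cells. Mmp19, a matrix metalloproteinase, ranged from -0.60 to 2.12 (median 0.84) at P12 and from 0.64 to 3.55 (median 2.49) at P28, a rise of 1.59 (SE 0.33, adjusted p = 0.00411), with 0.14 at a further probe. Of the strongest falls outside the lists, Retnla, a resistin-like protein of alternatively activated macrophages, fell by 1.98 (SE 0.61, adjusted p = 0.0455) and Fgfr1, a fibroblast growth factor receptor, by 1.63 (adjusted p = 0.0292), and both lost the call when single arrays were left out (14 and 4 of 22 arrays). Of stem and progenitor genes Slamf1 rose by 1.08 and Meis1 fell by 0.42, of cytokine genes of the innate response Osm fell by 0.70, of heart genes Myh6 fell by 0.33, and of 6 plasma cell genes none passed, the smallest p being that of Prdm1 (0.19, adjusted p = 0.226).

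Of 12 genes of fetal growth and imprinting tested, 3 fell, 2 rose and 7 were not called, with a median of -0.11. Igf2bp3, an RNA-binding protein of the fetal Lin28b program of blood stem cells, ranged from -0.50 to 0.73 (median 0.04) at P12 and from -1.30 to -0.63 (median -0.92) at P28, a fall of 0.95 (SE 0.12, adjusted p = 3.54e-05) without overlap, and a further probe for it had a change of -0.13. Arid3a, a factor of fetal B cell development, fell by 0.97 (adjusted p = 0.00225) and the imprinted cell cycle inhibitor Cdkn1c by 0.55 (adjusted p = 0.00829), while the imprinted gene Mest rose by 1.05 (adjusted p = 0.0125, with 0.14 at a further probe) and Sgce by 0.72 (adjusted p = 0.0415), a call lost on leaving out any of 14 arrays. With median centring none of the 3 falls passed the test (adjusted p between 0.137 and 0.372), and Mest did not pass with the signals of the scanner software (adjusted p = 0.0876). Afp, the fetal liver protein alpha-fetoprotein, had a median log2 ratio of -0.50 at P12 and 0.06 at P28 and rose by 0.59 (SE 0.08, adjusted p = 0.000152) without overlap, or by 2.33 with the signals of the scanner software. The transcripts Col1a2 and Col3a1, collagens of stromal cells, fell by 0.77 and 0.63, and Trf, transferrin of liver, fell by 1.36 (adjusted p = 0.03).

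Among lists of general cell functions, 22 of 24 DNA replication genes and 19 of 23 cell division genes had negative changes, few of which passed the test. Of the DNA replication genes 3 fell, Uhrf1, which keeps DNA methylation through replication, from a median of -1.81 to one of -2.43 (adjusted p = 0.024) and E2f1 and Cdc6 by 0.32 each, with a median of -0.33. The count was 5 without P12 replicate 10, 1 without P28 replicate 2 or 3, 1 with slide as a block and 0 with median centring. With slide as a block E2f1 and Cdc6 lost the call (limma, adjusted p = 0.0958 and 0.134). Of the cell division genes Top2a fell by 0.81 (adjusted p = 0.0468) and the median was -0.27. Top2a lost the call with slide as a block (limma, adjusted p = 0.0726), and with median centring 0 cell division genes were lower. Leaving out 1 array gave 0 to 8 lower cell division genes, with 8 reached without P12 replicate 3 or without P28 replicate 1. In hyperoxia 7 DNA replication and 9 cell division genes fell, with medians of -0.52 and -0.56. Of 25 genes of hypoxia and glycolysis, Ndrg1 and Hk1 rose by 1.53 and 1.07 (0.04 at a further probe for Hk1) and Hk2 fell by 0.32. Of 15 glucocorticoid response genes, Tsc22d3, the glucocorticoid-induced leucine zipper, rose by 0.91 (SE 0.15, adjusted p = 0.000488), as did Ddit4. Of 23 immediate early genes, Fosb, Ier3 and Jund fell by 0.74, 0.63 and 0.76 and Cd69 and Tnfaip3 rose by 0.69 and 0.72. With median centring 0 of the 23 were higher and 0 lower. Of 11 clock genes Per2 fell by 0.29, of 23 genes of fatty acid use Ppard fell by 0.19 (0 to 4 lower with 1 array left out, 4 without P12 replicate 3), and none of 17 cholesterol synthesis genes passed the test (limma), the smallest p being that of Nsdhl (0.17, adjusted p = 0.0798).

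The P17 normoxia mice, of which 8 of 12 were scanned on the second day, are given as a description of the time between. The share of probes well above background was 38.1% ± 4.86 (SD, n = 12) in them, lower than at P12 and P28, and its part in the P17 values was not tested. Their mean lay between the P12 and P28 means for 1066 of the 1324 called genes (80.5%), and the median share of the change present at P17 was 46.3% for the genes that rose and 49.6% for those that fell. The ATF4 targets were still near their P12 level at P17: the mean of Asns was 0.11, 3.15% of the way to P28, and that of Atf5 was 2.04, above its P12 mean. Of the change of Siglecf 86.7% was present, and Prg2 was well above background on 4 of 12 P17 arrays against 11 of 11 at P12 and 2 of 11 at P28. Of the named stefins other than Csta2, Stfa1 had made 47% and Cstdc4 72.2% of the change, the lowest and the highest share. Among the risers Rtp4 had made 44.1% of its change and Xaf1 25.7%, while Fcer2a stood at its P12 mean, with -0.842%.

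Mice raised in hyperoxia until P12, compared on the same ages in 10 mice each, share no array with the normoxia mice. The titles give 10 of the 11 P12 normoxia samples the same mouse numbers as the 10 P12 hyperoxia samples, while the deposited files of the former carry other numbers, so the identity of single P12 mice is uncertain and groups rest on the titles. The hyperoxia arrays differed in quality as well: the erythroid mean log2 ratio was 3.20 ± 0.62 (SD, n = 10) at P12 and 3.50 ± 0.43 (SD, n = 10) at P28, and the share of probes well above background 49.6% ± 4.29 and 46.8% ± 4.10. Their part in the values below was not tested. In them 2966 probes (11.6%) passed the test, 1801 (7.04%) higher and 1165 (4.55%) lower at P28, and by gene 1063 (8.16%) were higher and 656 (5.04%) lower. Of the 2275 probes called in normoxia, 2249 (98.9%) moved the same way in hyperoxia, against 76.4% of all probes tested. Of these 1340 were themselves called in the same direction, which is 58.9% of the normoxia calls and 45.2% of the hyperoxia calls, and none was called in the opposite one. In the interferon list 19 genes rose in hyperoxia, in the cytotoxic list 14, and in the neutrophil list 8 fell. A test of the difference between the oxygen groups called 0 probes (limma), and 765 probes (2.99%) were below an unadjusted p of 0.05. Of the 89 named genes that were called in normoxia, 88 changed the same way in hyperoxia and 36 changed more in normoxia than in hyperoxia. The exception in direction was Cpox, with a change of 0.39 (adjusted p = 0.276) in hyperoxia.

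In hyperoxia 5 of the 26 ATF4 list genes fell. Atf5 fell by 2.68 (adjusted p = 0.000286), 1.65 less than in normoxia, and Asns by 2.27 (adjusted p = 0.00618), 1.41 less. The P28 means were close, -3.05 in hyperoxia and -3.06 in normoxia for Atf5, and -3.40 and -3.46 for Asns. The P12 means were lower in hyperoxia, -0.37 against 1.28 for Atf5 and -1.12 against 0.22 for Asns. Trib3 had a change of -0.38 (adjusted p = 0.274), a difference of 1.53, Shmt2 one of -0.29 (adjusted p = 0.114), a difference of 0.74, and Tfrc one of -0.60 (adjusted p = 0.0943), with 1 of the 10 P28 hyperoxia mice missing a value. The unadjusted p of the difference was 0.0156 for Atf5, 0.0431 for Asns, 0.0038 for Trib3 and 0.00158 for Shmt2, and none passed after adjustment over all probes. Ddit4, the riser of the list, changed more in hyperoxia (1.71 against 0.84, unadjusted p of the difference 0.00679). The stefins Cstdc5 and Stfa1 fell by 4.06 and 3.92 in hyperoxia, against 3.77 and 3.63 in normoxia.

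**Figure D5:**
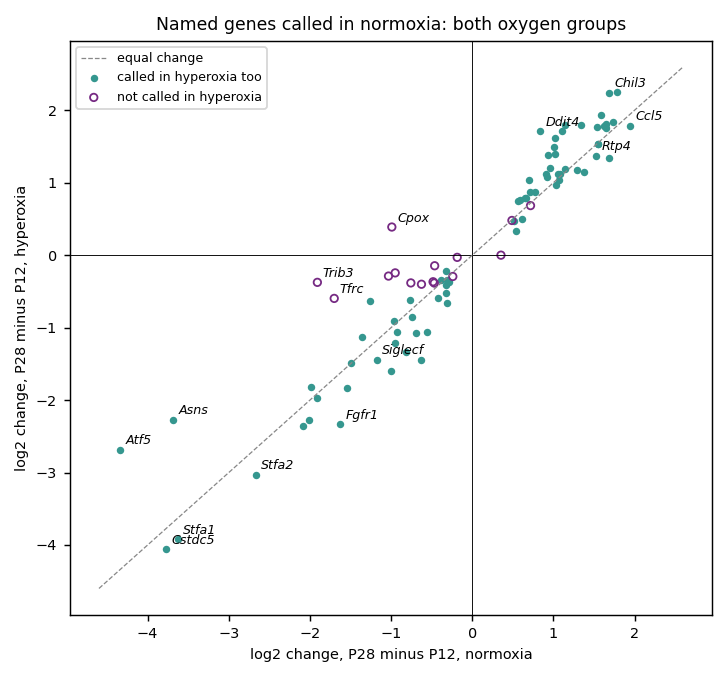
Log2 change from P12 to P28 of the 89 named genes called in normoxia (x axis) against that in hyperoxia (y axis), 1 point per gene, filled where called in hyperoxia too (74 genes), with a dashed line of equal change. In both groups 88 of the 89 have the same sign, and Atf5 and Asns lie above it, with falls of 4.33 and 3.68 in normoxia against 2.68 and 2.27 in hyperoxia.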

How the data were processed

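Each array carried the RNA of 1 mouse and a universal mouse reference. Scanning and extraction of intensity values and flags were done by the authors (Feature Extraction 10.7.3.1), who also deposited a value table on the log2 scale (other), which correlated with the log2(Cy3/Cy5) ratio of the software's processed signals (r = 1 to 3 decimals on 22 of 22 arrays). The other flags deposited by the authors marked outliers, saturation and signal above background. From the median spot and background intensity the log2 ratio was computed in limma 3.58.1 (R 4.3.3) with normexp (offset 50) and loess within each array. Of 62976 spots an array, spots of 1 probe were averaged, which gave 56605 probes, and 32994 matched 22911 genes. Saturated spots numbered 0. Probes well above background in Cy3 on at least 0.5 of the arrays of 1 group were tested with lmFit and eBayes on the 22 normoxia arrays alone, with Benjamini-Hochberg adjustment over all 25599, then on the hyperoxia arrays alone, and the difference of the changes on the 4 groups together. The share of detected probes was compared by a two-sided permutation test with 100000 resamples. The number of arrays limits the precision. Named genes were the 12 higher and 12 lower with the largest change, up to 3 a direction and list by adjusted p, the gene of smallest p where none of a list passed, and the measured embryonic globins and sex-linked genes. Samples, lists and rules were chosen with earlier results of these data known. The alternatives tried were other signals, normalization, filters, covariates, blocks and arrays left out. The methods were tested on simulated data. Some results are not reported here.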

Additional observations from a re-analysis of the deposited data

Results flagged for a closer look

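In 9 of 184 pairs of a named gene and a hyperoxia group, 1 mouse stood apart from the others by Dixon's test, where chance alone gives about 1 in 20 (groups of 11 mice were not tested). These mice bear only on the values set beside the normoxia change. At P12 in hyperoxia, replicate 10 was low in Ppbp (0.84, the other 9 mice between 4.22 and 6.76) and in Lrrn3 (-0.34), replicate 3 was high in Nlrc5 (1.27) and replicate 6 low in Sec61b (-0.44). At P28 in hyperoxia, replicate 9 was high in Osm (3.29) and low in Lef1 (1.48), replicate 1 was high in Tfrc (1.77), replicate 3 in Stfa1 (0.68) and replicate 6 in Hars (-0.86).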

How the results depend on the processing

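The count of 2275 probes called in normoxia moved by less than 1.5 times with the signals of the scanner software (2283), the authors' value table (2279), Cy3 alone (2076), no probe filter (1690), slide as a block (1882), arrays of scan day 1 (2075) and the 3 arrays low in erythroid RNA left out (2899, an alternative chosen after seeing the data). It was 958 with median centring and 631 with slide as a block beside it (581 higher, 50 lower, chosen after seeing the data), 4479 with array weights, 4493 with the erythroid level and 3813 with the detection share as a covariate, and 4 in the Cy5 channel alone. Leaving out 1 array at a time gave 1718 to 2541. In hyperoxia the count of 2966 became 553 with median centring, 334 with slide beside it and 4 in Cy5 alone. The difference between oxygen groups called 2 probes with the software's signals and slide as a block and 0 under the other settings. Of the 89 named genes called, 53 stayed past the threshold with median centring, 70 with the software's signals and 77 to 87 with 1 array left out. Cdc6, E2f1, Fgfr1, Jund, Ppard, Prtn3, Retnla, Sgce, Slamf1, Slc40a1, Tnfaip3, Top2a, Trf and Vpreb1, with adjusted p-values between 0.0277 and 0.0488, each lost the call on leaving out at least 1 single array (2 to 16 of the 22 arrays). The 19 that lost the call with the software's signals were Apol11b, Ccr7, Cd247, Cr2, E2f1, Fcer2a, Fcmr, H2-Oa, Il2rb, Il7r, Jund, Mest, Ppard, Ppbp, Prtn3, Retnla, Slamf1, Top2a and Trf. For Cd247, F13a1, Fgfr1, Hk1, Igf2bp3, Lgalsl, Mest, Mmp19, Per2, Sgce, Slamf1, Top2a and Xpo7 at least 1 further tested probe was not called in the same direction. Among genes described beyond the named ones, the same held for Cebpg, Ciita, H2-Q7, Slc3a2 and Tap1. With the software's signals 35 of the 89 changes were more than 1.5 times as large and 7 were under the main value divided by 1.5. Among these 7, that of Fcmr turned from 1.04 to -0.10 (-0.0402 with slide as a block). The difference in detection share of 0.382 ranged from -0.674 to 1.215 with 1 array left out (-0.335 without P28 replicate 9, -0.095 without P28 replicate 1) and was -0.264 with the flag of the Cy5 channel and 1.59 on arrays of scan day 1, all within the spread. The cause of these shifts was not tested. No paired analysis was possible because the labels give mice of different ages no shared replicate number. Signal near background limits Prg2, Csta2, Csta3 and Mcpt8 at P28. Vpreb1, Prtn3 and Myh6 were each well above background on 6 of the 11 P28 arrays. With the software's signals their changes were -1.81, -1.44 and -1.49.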

Other observations

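Single mice departed from their group across several genes at once. P17 normoxia replicate 4 had Atf5 at -2.15 and Asns at -4.25, where the other 11 mice of its group lay between 1.32 and 3.65 and between -0.63 and 1.24, and its Tfrc was 0.28 against 1.53 or more. The same mouse was the highest of its group in Stfa1 (4.96) and Cstdc5 (5.01), and its erythroid mean log2 ratio of 3.02 was the lowest of the 12.

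In 1 of the 11 P12 mice Trib3 went against other ATF4 targets. Replicate 3 had the highest Trib3 of the 11 (1.98) together with the lowest Atf5 (-1.36), Asns (-2.18), Shmt2 (-2.31) and Tfrc (0.66). On that array Trib3 was the highest of the 22 in both channels, with a log2 intensity of 12.39 in Cy3 and of 10.66 in Cy5, where the median was 8.94. The stefins separated 3 P12 mice from the rest: Stfa1 was 5.63, 5.75 and 6.40 in replicates 1, 2 and 9 and between 2.42 and 4.13 in the other 8. Replicates 1 and 2 were low in erythroid RNA, and a part of it in these values was not tested.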
